A study of Homo sapiens with 12 samples.

Results

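The genes described here are 54 genes of double-strand break repair and of the Fanconi pathway, measured by RNA-Seq in FaDu cells with and without STING. They form a list by function, from 58288 genes listed in the deposited table. The list, and the comparison of MRE11 with RAD50 and NBN, were set with earlier results of these data known. All 54 were among the 15973 genes with a level high enough to be tested. By role, 16 act in damage sensing, 9 in end joining, 17 in homologous recombination and 12 in the Fanconi pathway. FaDu is an established head and neck squamous cell carcinoma (HNSCC) line. The STING WT cells carried Cas9 and a non-targeting gRNA, and the STING KO cells carried Cas9 and a gRNA against STING, both delivered by lentivirus. Both were grown in DMEM with serum and were either left unirradiated (0 Gy) or given 4 daily fractions of 2 Gy (RT). Each of the 4 groups had 3 libraries, so 12 in all. The sources do not say whether the KO line is 1 clone, how long after the last fraction RNA was taken, or whether the 3 libraries of a group came from separate cultures, so p-values measure only the spread between these libraries, which may be technical.

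A double-strand break is recognised by the MRE11-RAD50-NBN complex, which tethers the ends, begins their resection and recruits the kinase ATM. Resected DNA recruits a further kinase, ATR, and its partners, and the chromatin around the break is marked by MDC1, RNF8, RNF168, TP53BP1 and RIF1. End joining then ligates the ends through the Ku proteins, DNA-PKcs, XRCC4 and DNA ligase IV, while homologous recombination copies the sister chromatid with BRCA1, BRCA2, PALB2 and their partners. The Fanconi pathway repairs interstrand cross-links, and its proteins also act with BRCA2 at stalled replication forks. Much of this control is exerted on proteins, by phosphorylation and ubiquitin, which RNA levels do not measure.

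TMEM173, the gene that encodes STING, was measured first as a check of the labels. It stood at 21.7, 23.5 and 21.1 TPM, transcripts per 1000000 transcripts, in unirradiated WT and at 5.18, 5.29 and 6.96 TPM in unirradiated KO libraries. After RT it was 26.1, 21.4 and 21.7 TPM in WT and 6.35, 7.41 and 7.08 TPM in KO libraries. Every KO library lay below every WT library, with log2 fold changes of −1.77 (SE 0.11) at 0 Gy and −1.60 (SE 0.11) after RT. Each separation had a two-sided exact permutation p of 0.1, the smallest that 3 against 3 libraries allow. The 5 squamous epithelial markers summed to 6000 to 8680 TPM per library, while the leukocyte markers PTPRC and CD3E, the endothelial marker PECAM1 and the fibroblast markers COL1A2 and DCN were all below 0.1 TPM. CD68, at 14.7 to 31.1 TPM, COL1A1, at 6.34 to 9.23 TPM, and VWF, at 2.60 to 4.49 TPM, were detected in every library.

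The repair genes were well expressed in these cells, with TPM, which is scaled per transcript length, comparable between genes. The median of the mean level over 12 libraries was 40.3 TPM for damage sensing, 20.7 TPM for end joining, 41.7 TPM for homologous recombination and 34.2 TPM for Fanconi genes, against 15.6 TPM for all genes tested. End joining genes had the widest range of levels, from DCLRE1C, the Artemis nuclease, at 8.27 TPM to XRCC6, the Ku70 subunit, at 1700 TPM. The other Ku subunit, XRCC5, was at 422 TPM and PRKDC, the catalytic subunit of DNA-PK, at 280.0 TPM. Damage sensing genes ran from ATRIP at 6.77 TPM to TOPBP1, the activator of ATR, at 161 TPM. Homologous recombination genes ran from RAD51D at 9.10 TPM to BLM, the Bloom helicase, at 73.4 TPM. Fanconi genes ran from FANCM, a translocase that recognises cross-links, at 11.9 TPM to FANCI, which clamps DNA with FANCD2, at 243 TPM.

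**Figure D1:**
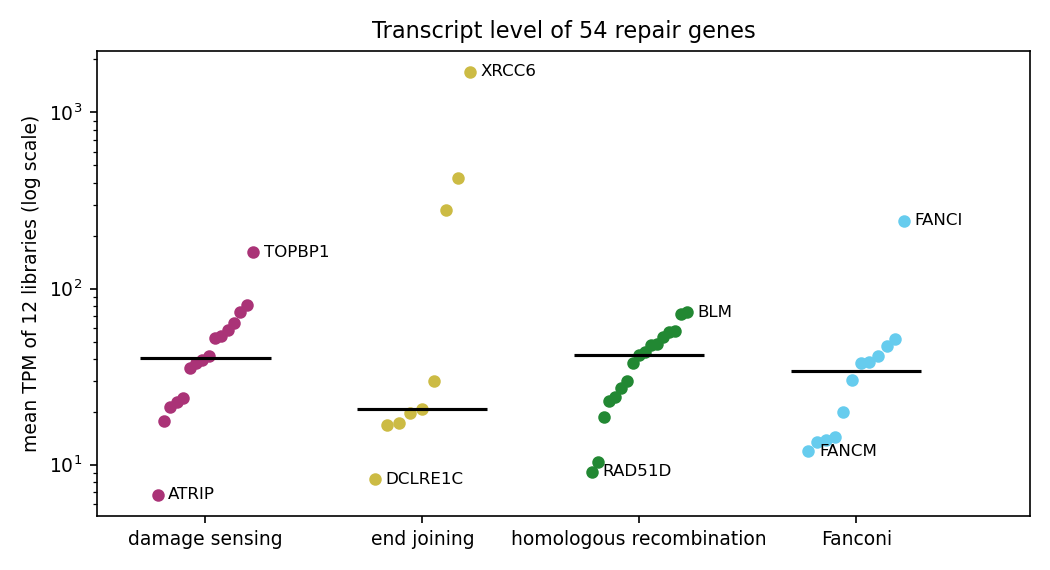
Mean TPM over the 12 libraries (log scale) of each of the 54 genes, 1 point a gene, by role, with a bar at the median of each role. XRCC6 at 1700 TPM stands above all others, and ATRIP at 6.77 TPM is the lowest.

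MRE11, the nuclease of the MRE11-RAD50-NBN complex, was the only gene of the 54 past the threshold (adjusted p under 0.05, limma on log2(TPM + 1), adjusted over all genes tested) in each of the 5 comparisons. Unirradiated WT libraries held 28.4, 24.9 and 24.4 TPM of MRE11, and unirradiated KO libraries 16.8, 16.2 and 18.7 TPM. After RT the order was the other way round, with 17, 18.5 and 17.6 TPM in WT and 22, 25.9 and 25.6 TPM in KO libraries. The groups did not overlap in either comparison of KO with WT, nor in either comparison of RT with 0 Gy. The group means were 25.9 ± 2.2 TPM (SD, n = 3) in unirradiated WT, 17.3 ± 1.3 in unirradiated KO, 17.7 ± 0.77 in irradiated WT and 24.5 ± 2.1 in irradiated KO cells. Unirradiated WT and irradiated KO libraries thus overlapped in level, as did unirradiated KO and irradiated WT libraries.

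In numbers, MRE11 in KO cells fell short of WT cells at 0 Gy by −0.56 on the log2 scale (SE 0.085, adjusted p = 0.0072) and exceeded them after RT, at 0.45 (SE 0.085, adjusted p = 0.017). Radiation lowered it in WT cells (by −0.52 on the log2 scale, SE 0.085, adjusted p = 0.0089) and raised it in KO cells (0.48, SE 0.085, adjusted p = 0.014). The difference between these radiation effects, KO minus WT, was 1.01 on the log2 scale (SE 0.12, 95% interval 0.74 to 1.27, adjusted p = 0.035). That last call rested on the settings, since it was lost with the replicate number as a block (adjusted p = 0.19) and in 9 of 12 fits that each left out 1 library, while its size stayed between 0.94 and 1.08. The 3 fits that kept it were those without unirradiated WT library 3, unirradiated KO library 3 or irradiated KO library 1. Leaving out irradiated WT library 1 or 3 or irradiated KO library 2 or 3 put KO against WT after RT at 0.41 to 0.44 (adjusted p 0.059 to 0.072). Leaving out unirradiated KO library 1 or 2 or irradiated KO library 2 or 3 put RT in KO cells at 0.44 to 0.47 (adjusted p 0.051 to 0.059).

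RAD50, the coiled-coil partner that bridges DNA ends, held 63.2, 55.4 and 62.9 TPM in unirradiated WT and 78.0, 51.3 and 55.5 TPM in unirradiated KO libraries. After RT it held 58.1, 61.1 and 77.8 TPM in WT and 79.4, 56.8 and 61.8 TPM in KO libraries. The groups overlapped in all comparisons, and 1 library in each of the KO groups and in irradiated WT stood well above the other two. NBN, the partner that binds ATM, held 70.0, 72.2 and 81.6 TPM in unirradiated WT, 72.1, 71.2 and 80.5 TPM in unirradiated KO, 76.5, 68.8 and 72.5 TPM in irradiated WT and 69.7, 72.5 and 75.4 TPM in irradiated KO libraries. Its groups overlapped in all comparisons as well.

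For RAD50 the KO minus WT log2 difference had a 95% interval of −0.38 to 0.39 both at 0 Gy and after RT, and for NBN of −0.16 to 0.16 in both. The difference between radiation effects had an interval of −0.54 to 0.54 for RAD50 and of −0.23 to 0.22 for NBN, neither of which reached the 1.01 measured for MRE11. MRE11 was also the least abundant of the 3 subunits' transcripts, at a mean of 21.3 TPM over 12 libraries against 63.5 TPM for RAD50 and 73.6 TPM for NBN.

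**Figure D2:**
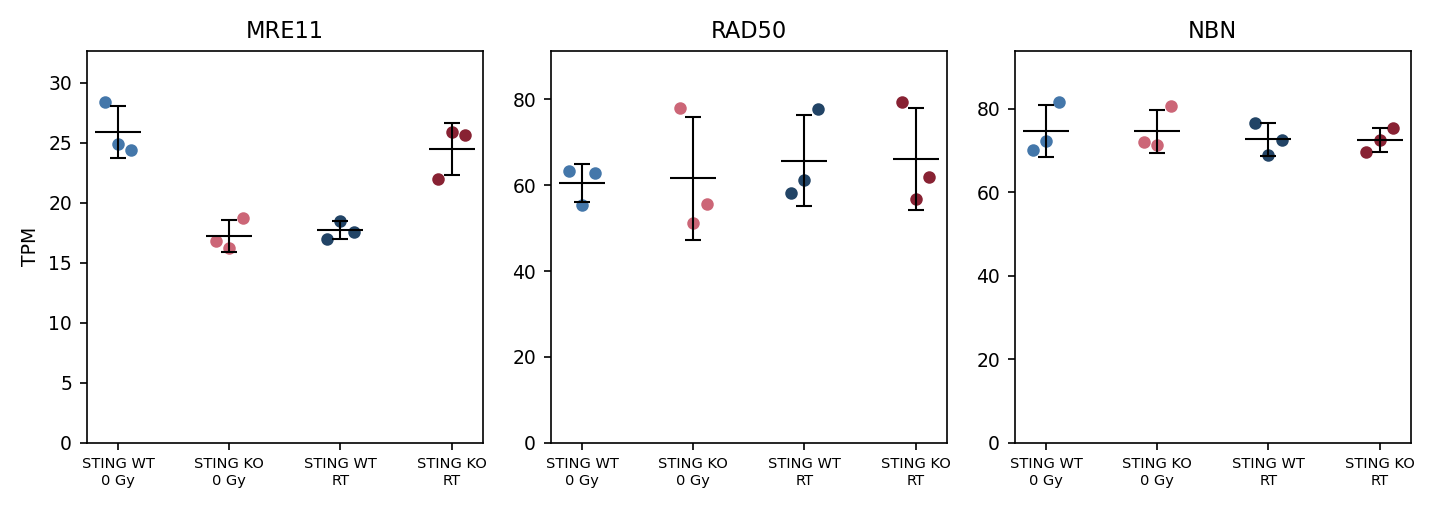
TPM of MRE11, RAD50 and NBN in each of the 12 libraries (points), with the mean and SD of 3 libraries (bars), for STING WT and KO cells at 0 Gy and after RT. MRE11 lies between 16.2 and 18.7 TPM in unirradiated KO and irradiated WT libraries and between 22 and 28.4 TPM in the others, while the groups of RAD50 and of NBN overlap.

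Ratios within a library do not depend on the scaling between libraries, so the subunits were also compared that way. The ratio of MRE11 to NBN was 0.405, 0.346 and 0.299 in unirradiated WT and 0.234, 0.228 and 0.233 in unirradiated KO libraries, and 0.222, 0.268 and 0.242 in irradiated WT and 0.316, 0.357 and 0.340 in irradiated KO libraries. All 4 comparisons of the MRE11 to NBN ratio separated the groups without overlap, with log2 differences of −0.59 (KO minus WT, 0 Gy), 0.47 (KO minus WT, RT), −0.51 (RT minus 0 Gy, WT) and 0.54 (RT minus 0 Gy, KO). Each of these had a two-sided exact permutation p of 0.1, the smallest possible here. For the ratio of MRE11 to RAD50 the log2 differences were −0.59 and −0.66 (exact permutation p = 0.1 each) for KO minus WT at 0 Gy and for RT minus 0 Gy in WT cells. After RT and in KO cells the MRE11 to RAD50 groups overlapped, at 0.47 and 0.40 (exact permutation p = 0.3 each). The ratio of RAD50 to NBN differed by 0.00 between KO and WT at either dose (exact permutation p = 1) and by 0.15 between RT and 0 Gy in either line (exact permutation p = 0.7 in WT and 0.5 in KO cells).

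**Figure D3:**
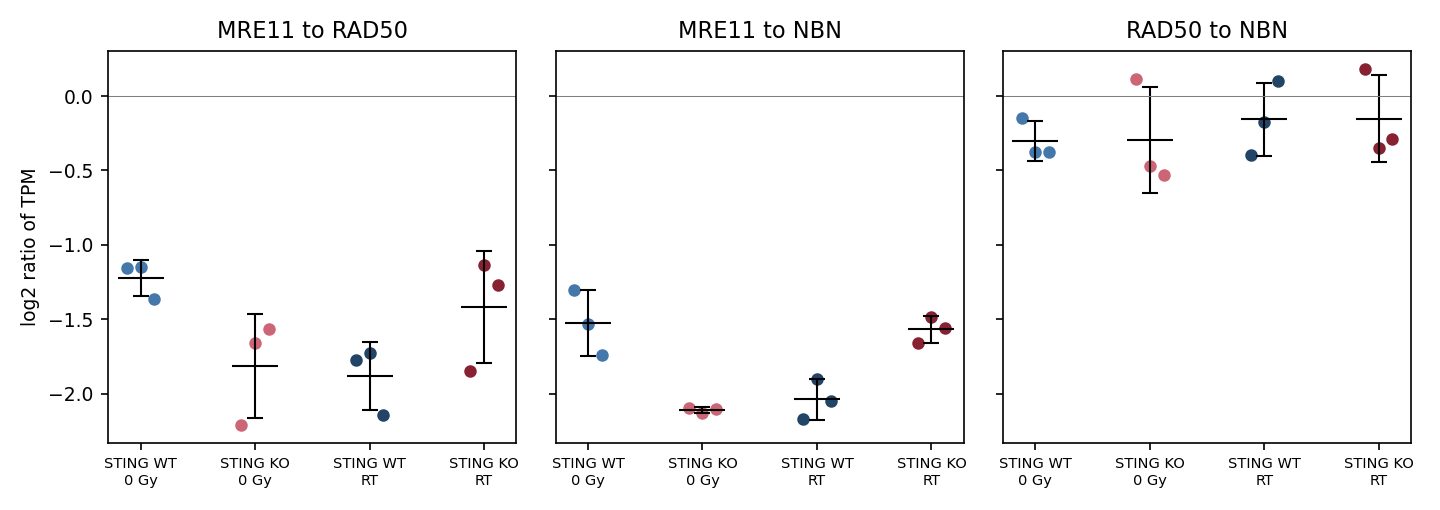
Log2 ratio of TPM between the subunits of the complex in each of the 12 libraries (points), with the mean and SD of 3 libraries (bars). The MRE11 to NBN ratio separates KO from WT in both doses, at log2 differences of −0.59 and 0.47, and the RAD50 to NBN ratio does not.

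MRE11 lies on the minus strand of chromosome 11 (ENSG00000020922.12, chr11:94415578-94493908, GRCh38, from GENCODE 29), and its start faces that of ANKRD49, a gene for an ankyrin repeat protein on the plus strand. The 139 bases between both RefSeq starts are shown because both genes start at their edges, and the RAD50 promoter and the 42 bases between LIG4 and ABHD13 are shown beside them. All are from RefSeq on GRCh38.p14, 5′ to 3′ on the strand of the named repair gene, at chr11:94493845-94493983 (minus strand) for MRE11, chr5:132556838-132556976 (plus strand) for RAD50 and chr13:108218350-108218391 (minus strand) for LIG4. The starts differ in GENCODE 29, where ANKRD49 begins at 94493629, RAD50 begins at 132556019 and LIG4 ends at 108218368. By that annotation the MRE11 stretch lies within ANKRD49 and partly within MRE11. Likewise, the RAD50 stretch lies within RAD50 and the LIG4 stretch partly within LIG4. Capitals mark CCAAT boxes (CCAAT, or ATTGG where the box is on the other strand) and TGCGCA, the core of the NRF1 site, which reads the same on both strands.
MRE11: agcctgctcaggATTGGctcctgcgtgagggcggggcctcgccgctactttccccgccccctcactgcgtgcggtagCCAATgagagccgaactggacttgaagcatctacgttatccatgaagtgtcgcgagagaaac
RAD50: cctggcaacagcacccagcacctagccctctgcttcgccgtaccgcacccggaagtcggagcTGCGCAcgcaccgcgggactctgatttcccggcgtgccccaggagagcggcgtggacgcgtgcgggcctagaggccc
LIG4: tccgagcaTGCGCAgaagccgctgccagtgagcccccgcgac

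ANKRD49 did not share the pattern of MRE11. It stood at 7.64, 5.94 and 12.4 TPM in unirradiated WT, 10.7, 14.3 and 7.53 TPM in unirradiated KO, 6.82, 6.33 and 7.14 TPM in irradiated WT and 8.56, 7.27 and 6.92 TPM in irradiated KO libraries. Its groups overlapped in each comparison, and its difference between radiation effects was −0.17 (SE 0.34, adjusted p = 0.96). The gene models of MRE11 and ANKRD49 overlap by 280 bases, and no strand setting is stated for the deposited values, so reads there cannot be assigned to either gene. Within MRE11, on its strand, the noncoding gene AP000786.1 is listed at 3.82 to 6 TPM and passed the threshold in none of the 5 comparisons.

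Among the 5 tested genes on each side of MRE11 on the chromosome, 1 comparison of 1 gene passed the threshold. PANX1, which encodes a membrane channel, had less transcript in KO than WT cells after RT, by −0.39 on the log2 scale (SE 0.060, adjusted p = 0.0053). The other neighbours, SNORA18, C11orf54, MED17 and AP002784.2 on the side of lower coordinates and AP000786.1, ANKRD49, FUT4, AMOTL1 and CWC15 on the other, passed it in none. CWC15, a splicing factor, was nearest to MRE11 in its direction, with a difference between radiation effects of 0.32 (SE 0.095, adjusted p = 0.67).

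Of the 54 genes, 49 had a promoter in the RefSeq table, from 250 bases before to 50 after the start, and 4 motifs were counted in them on both strands. The E2F site (TTTCGCGC, TTTGGCGC, TTTCCCGC or TTTGCCGC), typical of genes expressed in S phase, was held by 8 of 49 (16.3%) against 3.31% of 35116 promoters. These 8 were the promoters of EXO1, GEN1, XRCC2, FANCD2, FANCA, FANCC, TOPBP1 and XRCC6. The NRF1 core was held by 12 of 49 (24.5%) against 8.24%, the CCAAT box by 22 (44.9%) against 34.6%, and the CHR element of genes expressed in G2 and M phase (TTTGAA or TTCGAA) by 6 (12.2%) against 16.4%. The 49 were taken as a single promoter per gene, while the 35116 were all entries of full length, without that reduction. Nor were the 35116 limited to the genes tested here, so the sets are unlike and no test compared their shares. A match is a match of letters in these windows only, and whether any factor binds there was not measured.

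Damage sensing genes other than MRE11 did not pass the threshold in any comparison. Of the 16, MRE11 was the 1 past it at 0 Gy for KO against WT, where 1.73% of all genes tested passed, and again the 1 after RT, where 3.59% passed. For RT against 0 Gy it was the 1 of 16 in WT cells (3.74% of all genes) and in KO cells (3.69% of all genes), and the 1 for the difference between radiation effects, where only 3 genes of 15973 (0.0188%) passed. ATM, the kinase that the complex recruits, had log2 fold changes between −0.04 and 0.22 over the 4 comparisons of groups, and ATR between −0.08 and 0.03. The effector kinase CHEK1 lay between −0.08 and 0.08 and CHEK2 between −0.15 and 0.04.

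ATRIP, the partner of ATR, had the largest log2 fold changes of the damage sensing genes for KO against WT after RT (0.60, SE 0.63, adjusted p = 0.68) and for RT in KO cells (0.67, SE 0.63, adjusted p = 0.64). It held 8.18, 1.48 and 9.43 TPM in unirradiated WT, 8.57, 7.57 and 1.75 TPM in unirradiated KO, 7.30, 2.29 and 8.47 TPM in irradiated WT and 9.78, 9.30 and 7.15 TPM in irradiated KO libraries. A single library in each of 3 groups was far below the other two. Without irradiated WT library 2 the first of these differences was 0.13, where MRE11 was at 0.48, and without unirradiated KO library 3 the second was 0.095, where MRE11 was at 0.54. ATRIP had the largest spread between libraries of a group among the 54, with a pooled SD of 0.87 on the log2 scale, larger than that of 99.2% of all genes tested, against a median of 0.11 for the 54 genes and 0.15 for all genes. Its gene model overlaps TREX1, an exonuclease gene on the same strand, which ranged from 2.39 to 13.2 TPM, and the sum of both ranged from 4.43 to 21.7 TPM. RNF8, a ubiquitin ligase of the chromatin response, was at 20.9, 33.0 and 27.4 TPM in irradiated KO libraries against 18.4, 19.7 and 20.6 TPM in unirradiated KO libraries, which is 0.43 on the log2 scale (SE 0.14, adjusted p = 0.12). RNF8 passed the threshold in this comparison when irradiated KO library 1 was left out.

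Of the 9 end joining genes, 8 had a KO minus WT log2 difference below 0 at 0 Gy and 8 after RT. These are counts of signs at the deposited scaling. The medians were −0.11 and −0.041, against −0.021 and −0.017 over all genes tested, whose share below 0 was not counted. Among 8 further end joining genes, from a list described below, 5 were below 0 and 3 above at 0 Gy (median −0.036). After RT 2 were below 0 and 6 above (median 0.039). The counts that follow are for the 9 genes. At an unadjusted p under 0.05 there were 2 (22.2%) for KO against WT at 0 Gy, against 14.3% of all genes tested, 1 (11.1%) after RT, against 17.9%, 3 (33.3%) for RT in WT cells, against 18.2%, 3 (33.3%) for RT in KO cells, against 18.1%, and 0 for the difference between radiation effects, against 6.61%. The libraries compared did not overlap for 3, 3, 3 and 4 of the 9 genes in the 4 comparisons of groups. These are 33.3% in the first 3, against 20.6%, 24.1% and 24.8% of all genes. For RT in KO cells the share was 44.4%, against 24.3%. In the same order, the shares were 33.3%, 8.33%, 41.7% and 16.7% for Fanconi genes. They were 23.5%, 0%, 29.4% and 23.5% for homologous recombination genes and 12.5%, 12.5%, 6.25% and 12.5% for damage sensing genes. LIG4, the ligase that seals the break, was the only one of the 9 past the adjusted threshold, and only for RT in KO cells. It held 16.9, 15.5 and 15.1 TPM in unirradiated WT, 14.4, 15.1 and 14.3 TPM in unirradiated KO, 19.8, 19.0 and 18.9 TPM in irradiated WT and 17.6, 18.2 and 21.2 TPM in irradiated KO libraries. All irradiated libraries lay above all unirradiated libraries of both lines. The log2 fold change with RT was 0.36 in KO cells (SE 0.074, adjusted p = 0.028) and 0.27 in WT cells (SE 0.074, adjusted p = 0.077), and these 2 effects differed by 0.08 (95% interval −0.15 to 0.32, adjusted p = 0.93). The call in KO cells was lost without any 1 of the unirradiated KO libraries or without irradiated KO library 2 or 3 (0.28 to 0.38, adjusted p 0.060 to 0.094) and with the replicate number as a block (adjusted p = 0.067). ABHD13, whose start faces that of LIG4, ranged from 17.4 to 21.1 TPM and passed the threshold in none of the 5 comparisons.

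XRCC4, the scaffold of the ligase, was at 29, 22.6 and 24.2 TPM in irradiated KO libraries, below the 32.5, 31.7 and 29.6 TPM of irradiated WT and below the 31.6, 31.5 and 29.6 TPM of unirradiated KO libraries. The log2 fold changes were −0.31 (SE 0.092, adjusted p = 0.11) and −0.29 (SE 0.092, adjusted p = 0.12), so neither passed the threshold, although without irradiated KO library 1 the first was −0.40 (adjusted p = 0.033) and the second passed as well. LIG3, the ligase of alternative end joining, was at 24.6, 22.8 and 21.6 TPM in unirradiated WT libraries and between 16.5 and 21.1 TPM in all 9 others. Its log2 fold change for KO against WT at 0 Gy was −0.32 (SE 0.092, adjusted p = 0.14), and its difference between radiation effects, the largest of the end joining genes, was 0.26 (SE 0.13, adjusted p = 0.76). POLQ, the polymerase of alternative end joining, was at 18.2 to 21.1 TPM in the 6 unirradiated and 21.4 to 22.4 TPM in the 6 irradiated libraries, with log2 fold changes of 0.13 in WT (SE 0.049, adjusted p = 0.20) and 0.20 in KO cells (SE 0.049, adjusted p = 0.053). DCLRE1C had the largest difference between KO and WT at 0 Gy of the end joining genes, at −0.39 (SE 0.22, adjusted p = 0.47). That rank rested on single libraries, since its value was −0.18 without unirradiated WT library 2 and −0.64 without unirradiated WT library 3. The abundant XRCC5, XRCC6 and PRKDC had log2 fold changes of −0.06 to 0.07 in all 4 comparisons of groups.

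None of the 17 homologous recombination genes passed the threshold in any of the 5 comparisons. At an unadjusted p under 0.05 there were 2 (11.8%) for KO against WT at 0 Gy, where 14.3% of all genes tested were under it, and 0 after RT, against 17.9%. There were 2 (11.8%) for RT in WT cells, against 18.2%, 4 (23.5%) for RT in KO cells, against 18.1%, and 1 (5.88%) for the difference between radiation effects, against 6.61%. Only the share for RT in KO cells was above that of all genes. PALB2, which links BRCA1 to BRCA2, was at 45.6, 51.3 and 54 TPM in unirradiated WT and 38.6, 42.2 and 40.5 TPM in unirradiated KO libraries, which did not overlap (difference −0.31 on the log2 scale, SE 0.086, adjusted p = 0.13). BRCA1 differed by −0.27 (SE 0.13, adjusted p = 0.37) in the same comparison and BRCA2 by −0.14, also without overlap.

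EME1 and MUS81, the subunits of a nuclease that cuts branched DNA, both had higher means after RT. EME1 was at 21.0, 21.3 and 24.4 TPM in unirradiated and 27.3, 25.1 and 25.7 TPM in irradiated WT libraries, and at 19.8, 19.6 and 17.8 TPM in unirradiated and 28.2, 23.4 and 23.0 TPM in irradiated KO libraries. The log2 fold changes of EME1 were 0.22 in WT (SE 0.089, adjusted p = 0.22) and 0.36 in KO cells (SE 0.089, adjusted p = 0.053), and those of MUS81 were 0.28 (SE 0.075, adjusted p = 0.069) and 0.16 (SE 0.075, adjusted p = 0.30). EME1 in KO cells passed the threshold without unirradiated WT library 3 (0.36, adjusted p = 0.048), and MUS81 in WT cells without unirradiated KO library 1 (0.28, adjusted p = 0.041). On the other strand, EME1 overlaps LRRC59, with a mean of 286 TPM, and MUS81 overlaps CFL1, with a mean of 3580 TPM, and 20 of the 54 genes overlap a tested gene on the other strand.

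RAD54L, a DNA motor protein, had a difference between radiation effects of −0.44 (SE 0.17, unadjusted p = 0.029, adjusted p = 0.74). It was at 40.7, 45.3 and 44.9 TPM in unirradiated and 48.0, 55.7 and 48.7 TPM in irradiated WT libraries, which did not overlap, and at 59.0, 43.6 and 56.9 TPM in unirradiated and 41.9, 41.3 and 51.8 TPM in irradiated KO libraries, which did. GEN1, which resolves Holliday junctions, had the largest difference between KO and WT of these genes at both doses, 0.42 (SE 0.30, adjusted p = 0.58) at 0 Gy and 0.28 (SE 0.30, adjusted p = 0.69) after RT. Both values rested on single libraries, since GEN1 was at 18.0 TPM in 1 unirradiated and 18.3 TPM in 1 irradiated KO library and at 7.75 to 10.5 TPM in the other 10. Without that irradiated KO library the difference after RT was −0.061.

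None of the 12 Fanconi genes passed the threshold either. At an unadjusted p under 0.05 there was 1 (8.33%) in each comparison except RT in WT cells, where there were 0, against the same shares of all genes of 14.3%, 17.9%, 18.2%, 18.1% and 6.61% in the order above. FANCD2, the protein that the pathway monoubiquitinates, was at 47.0, 47.0 and 43.9 TPM in unirradiated KO and 52.0, 54.1 and 66.4 TPM in irradiated KO libraries, which is 0.31 on the log2 scale (SE 0.079, adjusted p = 0.062). Without irradiated KO library 1 it was 0.38 and passed the threshold (adjusted p = 0.045), and without irradiated KO library 3, the highest, it was 0.20 (adjusted p = 0.084). In WT cells it was at 50.1, 52.1 and 50.1 TPM before and 52.8, 52.8 and 53.7 TPM after RT (0.06, SE 0.079), and the effects differed by 0.25 (95% interval 0.00 to 0.49, adjusted p = 0.75), or by 0.14 without irradiated KO library 3. Its partner in the clamp, FANCI, differed by 0.17 between KO and WT at 0 Gy (SE 0.087, adjusted p = 0.41), the largest of the Fanconi genes there. FANCE, a subunit of the core complex, differed by −0.21 after RT (SE 0.071, adjusted p = 0.14), and FANCM by 0.19 with RT in WT cells (SE 0.15, adjusted p = 0.59). BRIP1, a helicase that binds BRCA1, had an order of means like that of MRE11, with 40.3, 42.2 and 38.5 TPM in unirradiated WT, 35.2, 37.1 and 36.9 TPM in unirradiated KO, 36.6, 36.7 and 38.3 TPM in irradiated WT and 36.9, 39.4 and 41.7 TPM in irradiated KO libraries. Its difference between radiation effects was 0.22 (SE 0.081, adjusted p = 0.73).

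**Figure D4:**
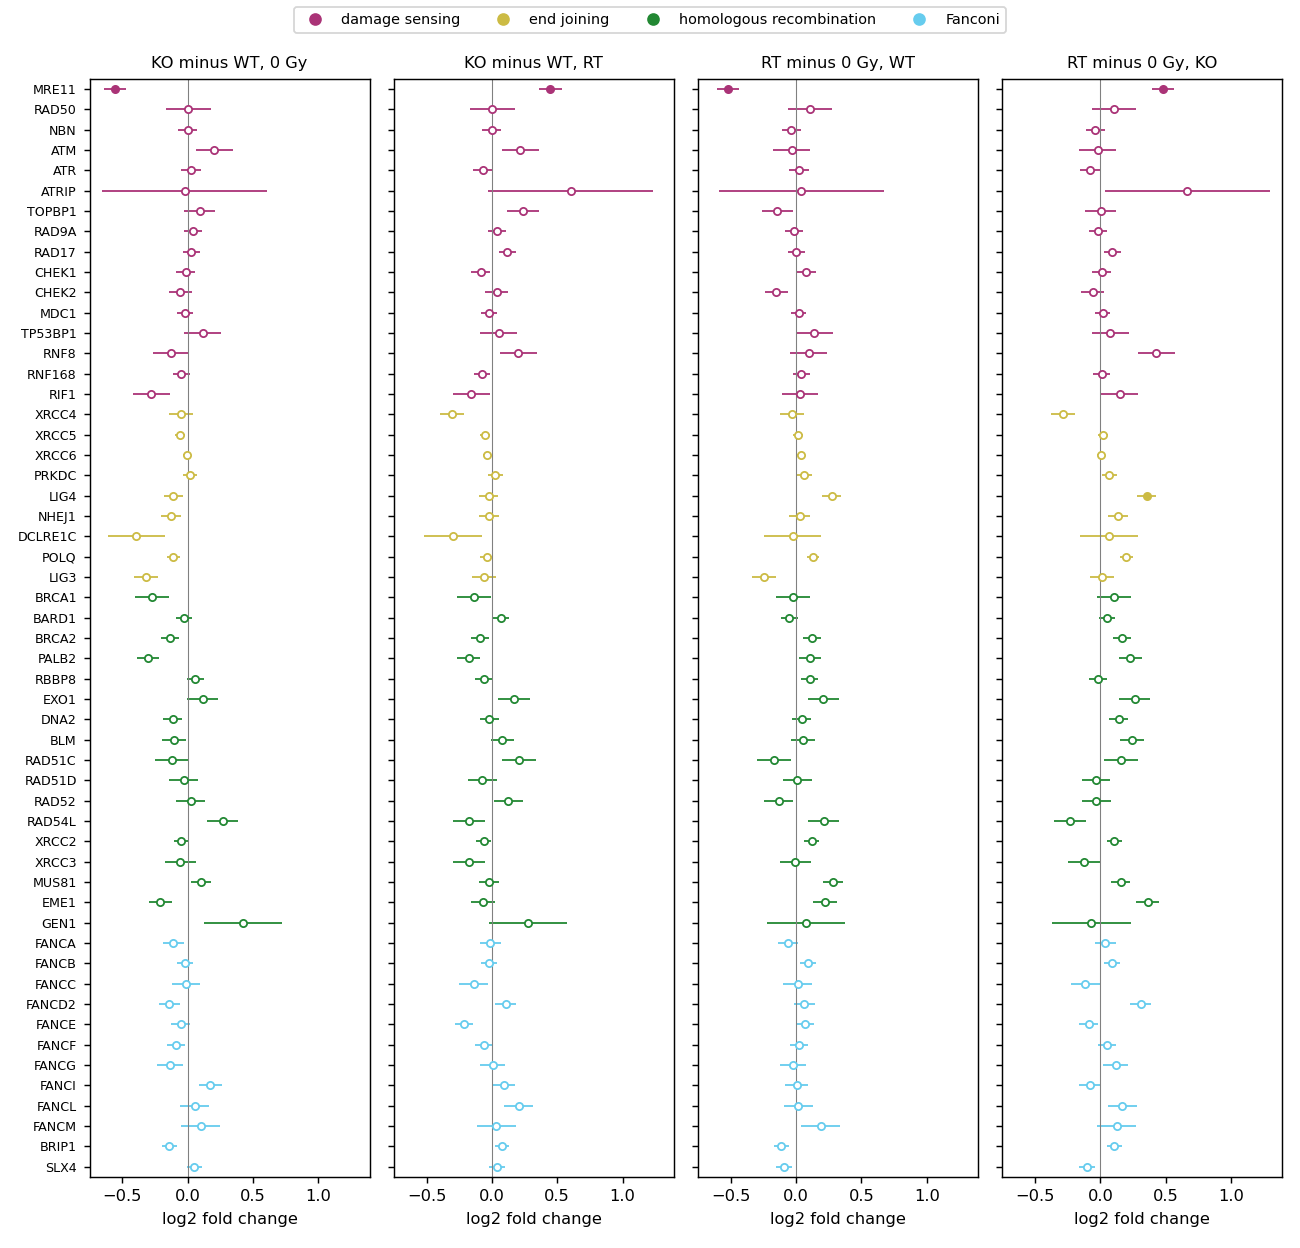
Log2 fold change of each of the 54 genes in 4 comparisons of groups (points, coloured by role), with bars of 1 SE. Filled points passed the threshold, which MRE11 did in all 4 panels and LIG4 for RT in KO cells.

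Over all 54 genes, the median shifts were small, and they lay furthest from that of the whole table for RT in KO cells. The median log2 fold change was −0.039 for KO against WT at 0 Gy (−0.021 over all genes tested), −0.020 after RT (−0.017), 0.024 for RT in WT cells (0.017), 0.069 for RT in KO cells (0.019) and 0.034 for the difference between radiation effects (−0.0024). The libraries of KO and WT did not overlap for 13 of 54 genes at 0 Gy, against 20.6% of all genes tested, and for 6 of 54 after RT, against 24.1%. Those of RT and 0 Gy did not overlap for 14 of 54 in WT cells, against 24.8%, and for 12 of 54 in KO cells, against 24.3%. These shares for the 54 genes, at 24.1%, 11.1%, 25.9% and 22.2%, were near the background or below it. A change below 0.3 on the log2 scale was seen for 49, 51, 53 and 48 of the 54 genes in these 4 comparisons (90.7%, 94.4%, 98.1% and 88.9%), against 84.7%, 82.9%, 82.5% and 82.2% of all genes tested.

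**Figure D5:**
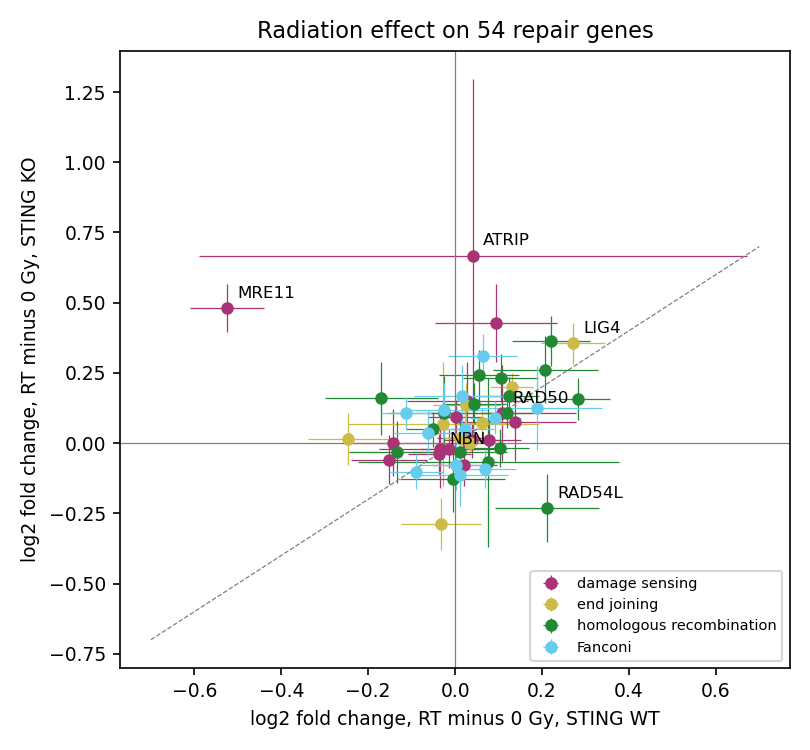
Log2 fold change with RT in STING WT (x axis) and in STING KO cells (y axis) for each of the 54 genes, with bars of 1 SE and a dashed line where both are equal. MRE11 lies at −0.52 in WT and 0.48 in KO cells, apart from all others.

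Opposite responses to radiation were rare in the whole table. Radiation changed 597 genes in WT and 590 in KO cells, and 319 were called in both, which is 53.4% of the first and 54.1% of the second. Of these 319, 171 were higher in both lines, 144 lower in both, and 4 moved in opposite directions. MRE11 was 1 of the 4, lower with RT in WT and higher in KO cells. RIT1, a small GTPase gene, and MPP7, a polarity scaffold gene, moved the same way, and AC008750.8 the reverse. The calls of AC008750.8 rested on values near the floor, at 0 to 1.85 TPM, with 0 in every irradiated KO library. The 3 beside MRE11 were named after their values were seen. MPP7, like MRE11, also passed the threshold for the difference itself, at 1.21 (SE 0.083, adjusted p = 0.00055), whereas RIT1 did not (0.48, SE 0.073, adjusted p = 0.19).

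Across the 12 libraries, the genes whose log2(TPM + 1) followed MRE11 most closely were SNORA6 (Pearson r 0.895), INVS (0.861), FAM227B (0.853) and CCNL1 (0.831), which are 4 of the top 5 of all genes tested. SNORA6 was at 5.19, 1.7 and 4.72 TPM in unirradiated WT and at most 0.0053 TPM in unirradiated KO libraries. It was at most 0.00675 TPM in irradiated WT and at 0.00797, 2.41 and 4.42 TPM in irradiated KO libraries. Its r thus rested largely on values at the floor. CCNL1, a cyclin that acts in splicing, was at 80.6 TPM in unirradiated WT and 70.2 TPM in unirradiated KO cells and at 72.2 TPM in irradiated WT and 83 TPM in irradiated KO cells. These are descriptions over 12 libraries that share 4 groups. Among the 54 genes the highest were BRIP1 (0.80), RAD51C (0.65) and LIG3 (0.54) and the lowest RAD54L (−0.53) and ATR (−0.48), while NBN was at 0.015 and RAD50 at −0.099.

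A further 63 genes of the same pathways were listed apart from the 54, and 60 of them were tested. RMI1, a subunit of the complex that dissolves double Holliday junctions with BLM, was the only one past the threshold for KO against WT, at either dose. At an unadjusted p under 0.05 there were 7 of the 60 (11.7%) at 0 Gy, against 14.3% of all genes tested, and 11 (18.3%) after RT, against 17.9%. RMI1 was at 70.9, 78.9 and 77.3 TPM in unirradiated WT against 54.6, 55.1 and 56.1 TPM in unirradiated KO libraries, and at 78.8, 89.4 and 73.8 TPM against 58.1, 64.1 and 67.4 TPM after RT. KO libraries lay below WT libraries at both doses, with log2 fold changes of −0.44 (SE 0.078, adjusted p = 0.015) and −0.35 (SE 0.078, adjusted p = 0.038). None of the 60 passed the threshold with RT in WT cells, where 6 (10%) had an unadjusted p under 0.05, against 18.2% of all genes. In KO cells 15 (25%) were under it, against 18.1% of all genes, and 3 passed the threshold: H2AFX, the histone phosphorylated at breaks, fell (−0.31, adjusted p = 0.027), BABAM1, a subunit of a BRCA1 complex, fell (−0.22, adjusted p = 0.040), and CLSPN, the mediator of CHEK1 activation, rose (0.30, adjusted p = 0.036). None passed for the difference between radiation effects, where 4 (6.67%) had an unadjusted p under 0.05, near the 6.61% of all genes.

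Of 28 cell cycle genes, 3 passed the threshold with RT in WT cells, where 3.74% of all genes tested passed. In KO cells 4 passed it, against 3.69% of all genes. All of these were G2/M genes and all were lower. Of the 11 G2/M genes, CCNB2 (−0.21), CCNA2 (−0.20) and CENPF (−0.31) were lower with RT in WT cells, and CCNB1 (−0.25), CCNB2 (−0.22), CCNA2 (−0.21) and CENPF (−0.22) in KO cells. An unadjusted p under 0.05 was found for 6 of the 11 in WT (54.5%, against 18.2% of all genes) and 7 in KO cells (63.6%, against 18.1%). Of 17 S phase genes none passed it with RT in either line, where 5 in WT (29.4%, against 18.2% of all genes) and 2 in KO cells (11.8%, against 18.1%) had an unadjusted p under 0.05. After RT the S phase genes MCM3 (−0.16) and MCM7 (−0.24) were lower in KO than in WT cells, past the threshold, which 3.59% of all genes passed there. In that comparison 6 of the 17 (35.3%, against 17.9% of all genes) had an unadjusted p under 0.05. The log2 fold change was negative for 13 of the 17 and positive for 4, with a median of −0.13 (−0.017 over all genes tested). At 0 Gy the KO against WT log2 fold change was already negative for 14 of the 17 and positive for 3. Its median there was −0.054 (−0.021 over all genes tested), and 4 of the 17 (23.5%, against 14.3%) had an unadjusted p under 0.05. The shares of all genes with a negative value were not counted. No gene of either cell cycle list passed the threshold for KO against WT at 0 Gy or for the difference between radiation effects. In these comparisons 7 (25%, against 14.3% of all genes) and 1 (3.57%, against 6.61%) of the 28 had an unadjusted p under 0.05. The part of these shifts in the values of LIG4 and of the other repair genes was not tested.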

How the data were processed

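RNA-Seq of 12 FaDu libraries (4 groups of 3) was analysed from a single table, in which the authors deposited TPM per gene and library from oligo-dT selected RNA sequenced as paired ends. The submitters' processing notes name HISAT2, StringTie and hg38, without versions, as what the authors used, and the annotation and strand setting are not given in the sources used here. Depth cannot be read from TPM, hence errors are SDs or SEs from the spread between libraries, and counting error was not modelled apart from it. The table's columns name WT as NT2, the control gRNA in the study's methods, and KO as A63, and TMEM173 was low in every column taken as KO.

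The 15973 genes that reached 1 TPM in 3 or more libraries were tested on the log2(TPM + 1) scale. Group means were compared with limma 3.58.1 under R 4.3.3 (1 fit to all 12 libraries, eBayes with trend), and p-values for 5 contrasts were adjusted by the Benjamini-Hochberg method over all genes tested, with a threshold of 0.05. The authors used DESeq2 for their own comparisons. Fold changes on this scale understate changes of low genes. The code was tested on simulated data. Ratios between genes used TPM without a pseudocount and two-sided exact permutation tests. Coordinates were from GENCODE 29, in which 45 of the 54 identifiers matched with their version, and promoters from RefSeq on GRCh38.p14.

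The genes, lists and rules were chosen with earlier results of these data known. Named are TMEM173, the MRE11 complex, genes past the threshold, the largest change per role and comparison, the highest and lowest level per role, the 5 genes most like MRE11 (1 of which is not reported here), its neighbours on the chromosome and pathway genes past the threshold. Other genes were named after their values were seen, namely TREX1, ABHD13, XRCC5, PRKDC, ATM, ATR, CHEK1, CHEK2, RNF8, POLQ, PALB2, BRCA1, BRCA2, BRIP1, RAD51C, RIT1, MPP7 and AC008750.8, and those listed for a promoter motif. Alternatives were a pseudocount of 0.1, no filter, a mean of at least 5 TPM, the replicate number as a block, eBayes without trend, scaling by median-of-ratios factors or by quantiles, only the 6 libraries compared, and each library left out in turn.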

Additional observations from a re-analysis of the deposited data

Results flagged for a closer look

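MRE11 was flagged because its radiation effect differed between the lines. The difference, KO minus WT, was 1.01 on the log2 scale (SE 0.12, adjusted p = 0.035, limma), with all 3 irradiated libraries below all 3 unirradiated ones in WT cells and above them in KO cells. No other of the 54 genes met either condition. Groups of 3 libraries were too small to be tested for single outlying libraries.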

How the results depend on the processing

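MRE11 kept its direction in all 5 comparisons under every alternative, and its radiation effect in WT cells also stayed past the threshold in all 20. With only the 6 libraries compared, the count of genes past the threshold was 0 for KO against WT at 0 Gy (MRE11 adjusted p = 0.068), 0 after RT (0.070) and 0 for RT in KO cells (0.078), with fewer libraries behind the spread. A mean of at least 5 TPM gave 4 for RT in KO cells (EME1, LIG4, MRE11 and POLQ). The difference between radiation effects had 0 genes past the threshold with eBayes without trend (MRE11 1.01, adjusted p = 0.053), and the cause was not tested. With each library left out in turn, the counts ran from 1 to 1, 0 to 2, 1 to 2, 0 to 5 and 0 to 1 over the 5 comparisons, and the difference for MRE11 from 0.94 to 1.08. MRE11 was lost in 4 of 12 for KO against WT after RT, in 4 of 12 for RT in KO cells, and in 9 of 12 for the difference (adjusted p up to 0.13). The 5 genes past the threshold for RT in KO cells without irradiated KO library 1 were FANCD2, LIG4, MRE11, RNF8 and XRCC4.

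The replicate numbers showed no pairing of the samples in the departures of libraries from their group means. Between groups, these departures correlated at −0.06 to 0.064 for same-numbered libraries (18 pairs) and at −0.07 to 0.057 for others (36 pairs). Of 12 libraries, 4 correlated best with their own number. The levels themselves correlated at 0.983 to 0.987 between libraries of the same group. With the number as a block the count was 1 for RT in KO cells and 0 for the difference (MRE11 1.01, adjusted p = 0.19), and the other 3 counts did not change.

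The median over the 54 genes moved to −0.017 at 0 Gy and 0.0019 after RT for KO against WT with median-of-ratios factors, and to −0.0037 and 0.015 with quantile normalization, so its sign after RT depended on the scaling. With single libraries left out the medians ran from −0.060 to −0.033, −0.028 to −0.0016, 0.024 to 0.039, 0.048 to 0.072 and 0.015 to 0.062. RAD50 and NBN lay so near 0 that their signs turned. For NBN after RT the KO minus WT value was 0.022 with median-of-ratios factors and 0.025 with quantile normalization, and with the latter the difference between radiation effects was 0.0013 for RAD50 and 0.0056 for NBN. With single libraries left out, KO minus WT ran from −0.17 to 0.12 for RAD50 and −0.054 to 0.067 for NBN at 0 Gy, and from −0.13 to 0.13 and −0.038 to 0.037 after RT. The RT effect ran from −0.018 to 0.19 and −0.080 to 0.029 in WT cells and from −0.032 to 0.29 and −0.070 to 0.017 in KO cells, and the difference from −0.14 to 0.18 and −0.067 to 0.053. GEN1 ran from −0.061 to 0.48 for KO against WT after RT. The TPM values allow no statement on depth.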
